A study of Drosophila melanogaster with 36 samples.

Results

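The mitochondrial genome of Drosophila melanogaster accounted for 37 of the 17610 genes in the deposited count tables. These were taken as every row whose symbol starts with mt:, and they comprised 13 protein-coding genes, 2 rRNA genes and 22 tRNA genes. They were followed in 36 RNA-seq libraries of the larval fat body, the insect tissue that stores and mobilises fat, in a study of circadian and ultradian rhythms of lipid metabolism.

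Mitochondrial DNA encodes a small core of the respiratory chain, and the rest of the chain is encoded in the nucleus. The 7 ND genes encode subunits of complex I (NADH dehydrogenase), mt:Cyt-b the cytochrome b of complex III, the 3 Co genes the catalytic core of complex IV (cytochrome c oxidase), and mt:ATPase6 and mt:ATPase8 membrane subunits of the ATP synthase. Complex II has no mitochondrially encoded subunit. The mitochondrial RNA polymerase copies long stretches of either strand, and the precursors are cut, mostly at the tRNAs that lie between the other genes, into mRNAs, rRNAs and tRNAs. The mRNAs and rRNAs then receive short poly(A) tails, and the levels of mitochondrial RNAs are set by stability as well as by transcription. On the BDGP6 assembly (Ensembl release 115), used here for strand, neighbours and length, 9 of the 13 protein-coding genes lie on one strand. mt:ND1, mt:ND4, mt:ND4L, mt:ND5 and both rRNA genes lie on the other.

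The libraries came from per0 larvae, which lack a functional period gene and hence the circadian clock, and from w1118 larvae, a white-eyed laboratory strain with an intact period gene. Third-instar larvae of both sexes were entrained to light-dark cycles and sampled in constant darkness at 9 circadian times (CT), every 4 h from CT0 to CT32. Each library pooled the fat bodies of 5 larvae, and each genotype and time had 2 libraries, so that per0 and w1118 had 18 libraries each. The count tables name the duplicates A and B. The sample titles call them biorep1 and biorep2, but no label ties the letters to these numbers or says whether they were separate cultures. The p-values below measure the spread between these samples, and how far that spread is technical is not known. The sources used here do not say whether the strains share a mitochondrial genome sequence. Any other difference in genetic background between the strains cannot be told apart from the loss of period. CT0, CT4 and CT8 are called the first day, CT12, CT16 and CT20 the night, and CT24, CT28 and CT32 the second day.

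Library totals ranged from 16513757 to 28423768 counts in per0 and from 16948806 to 25110769 in w1118. Levels are given as CPM, each gene's counts scaled to a common library size with TMM factors, where TMM corrects for the weight of a few abundant genes. These factors ran from 0.634 to 1.33 in per0 and from 0.873 to 1.24 in w1118. Fat body markers, 7 larval serum protein, Fbp and apolipophorin genes, summed to 18940 to 516400 CPM in per0 and to 91010 to 467100 CPM in w1118. Genes of other tissues were present at lower levels, and none of the marker genes was at 0 throughout either genotype. Midgut proteases and amylase (14 genes) summed to 0.508 to 11060 CPM in per0 and 0.664 to 5526 CPM in w1118, and muscle genes (11) to 286 to 5436 CPM in per0 and 317 to 4624 CPM in w1118. Hemocyte genes (7) summed to 298 to 1514 CPM in per0 and 96.9 to 1457 CPM in w1118, and neuron and glia genes (4) to 1.46 to 17.5 CPM in per0 and 2.20 to 48.8 CPM in w1118. Testis genes (11) had a median sum of 9.85 CPM in per0 and 96.8 CPM in w1118. roX1 and roX2, listed as a measure of sex composition, summed to 1.32 and 1.97 CPM in per0 CT20 A and B. They summed to 1.03 CPM in per0 CT24 B, 0.667 in CT28 A and 2.9 in CT32 A. The remaining per0 libraries held 62.8 to 331 CPM and w1118 libraries 8.38 to 235 CPM. The pools may thus differ in their share of males, whose part in the results was not tested. In these bulk samples a lower share of one cell type and less of an RNA per cell cannot be told apart.

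One library stood apart in its salivary gland transcripts. The per0 CT28 library of column B held 12540 CPM of salivary gland glue transcripts (6 genes), where the other per0 libraries held at most 11.9 CPM and w1118 libraries at most 1679 CPM. Over 20 genes picked for their gap between the genotypes it also lay between the mean of the 17 remaining per0 libraries and the w1118 mean. The median share of the way to w1118 was 0.43, with quartiles of 0.199 and 0.570. The genes were picked from those 17 and the w1118 libraries, so the 17 lie near their own mean by construction. Other libraries were high in midgut markers, with 11060 CPM in per0 CT4 B, 5119 in per0 CT24 B and 5526 in w1118 CT12 B. Without the per0 CT28 library of column B, 13 mitochondrial transcripts in place of 12 were called between the genotypes, and no count of mitochondrial transcripts called within per0 changed.

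The large rRNA was the most abundant mitochondrial RNA in every library. Per kilobase of gene, mt:lrRNA had a median of 35810 CPM in per0 and 30930 CPM in w1118, while the small ribosomal subunit's mt:srRNA had 282 CPM per kb in per0 and 202 in w1118. The kit primes cDNA at poly(A), so the levels of different RNAs depend on their tails as well as on their amounts. In counts, mt:lrRNA exceeded mt:srRNA by a ratio of 160 to 256 in per0 (median 209) and of 215 to 333 in w1118 (median 267).

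The mRNAs spanned a wide range per kilobase. The complex IV gene mt:CoII led with a median of 5569 CPM per kb in per0 and 4168 in w1118. mt:ATPase6 (5398 in per0, 2776 in w1118), mt:CoIII (4727 in per0, 3768 in w1118), mt:Cyt-b (3422 in per0, 2100 in w1118) and mt:CoI (2525 in per0, 2154 in w1118) followed. The complex I mRNAs lay lower, from mt:ND4 at 1103 CPM per kb in per0 and 861 in w1118 to mt:ND2 at 184 in per0 and 135 in w1118. mt:ND5, mt:ND3, mt:ND4L, mt:ND1 and mt:ND6 lay between them in that order in per0, at 808, 560, 480, 265 and 211 CPM per kb. Neighbours in this order had overlapping ranges among the per0 libraries. mt:ATPase8 had 994 CPM per kb in per0 and 544 in w1118, and its reading frame overlaps that of mt:ATPase6 by 7 bases. Counts of these overlapping genes are uncertain where the counting could split their reads, and the kit does not mark the strand, so that reads from a gene and from the opposite strand there cannot be told apart.

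**Figure D1:**
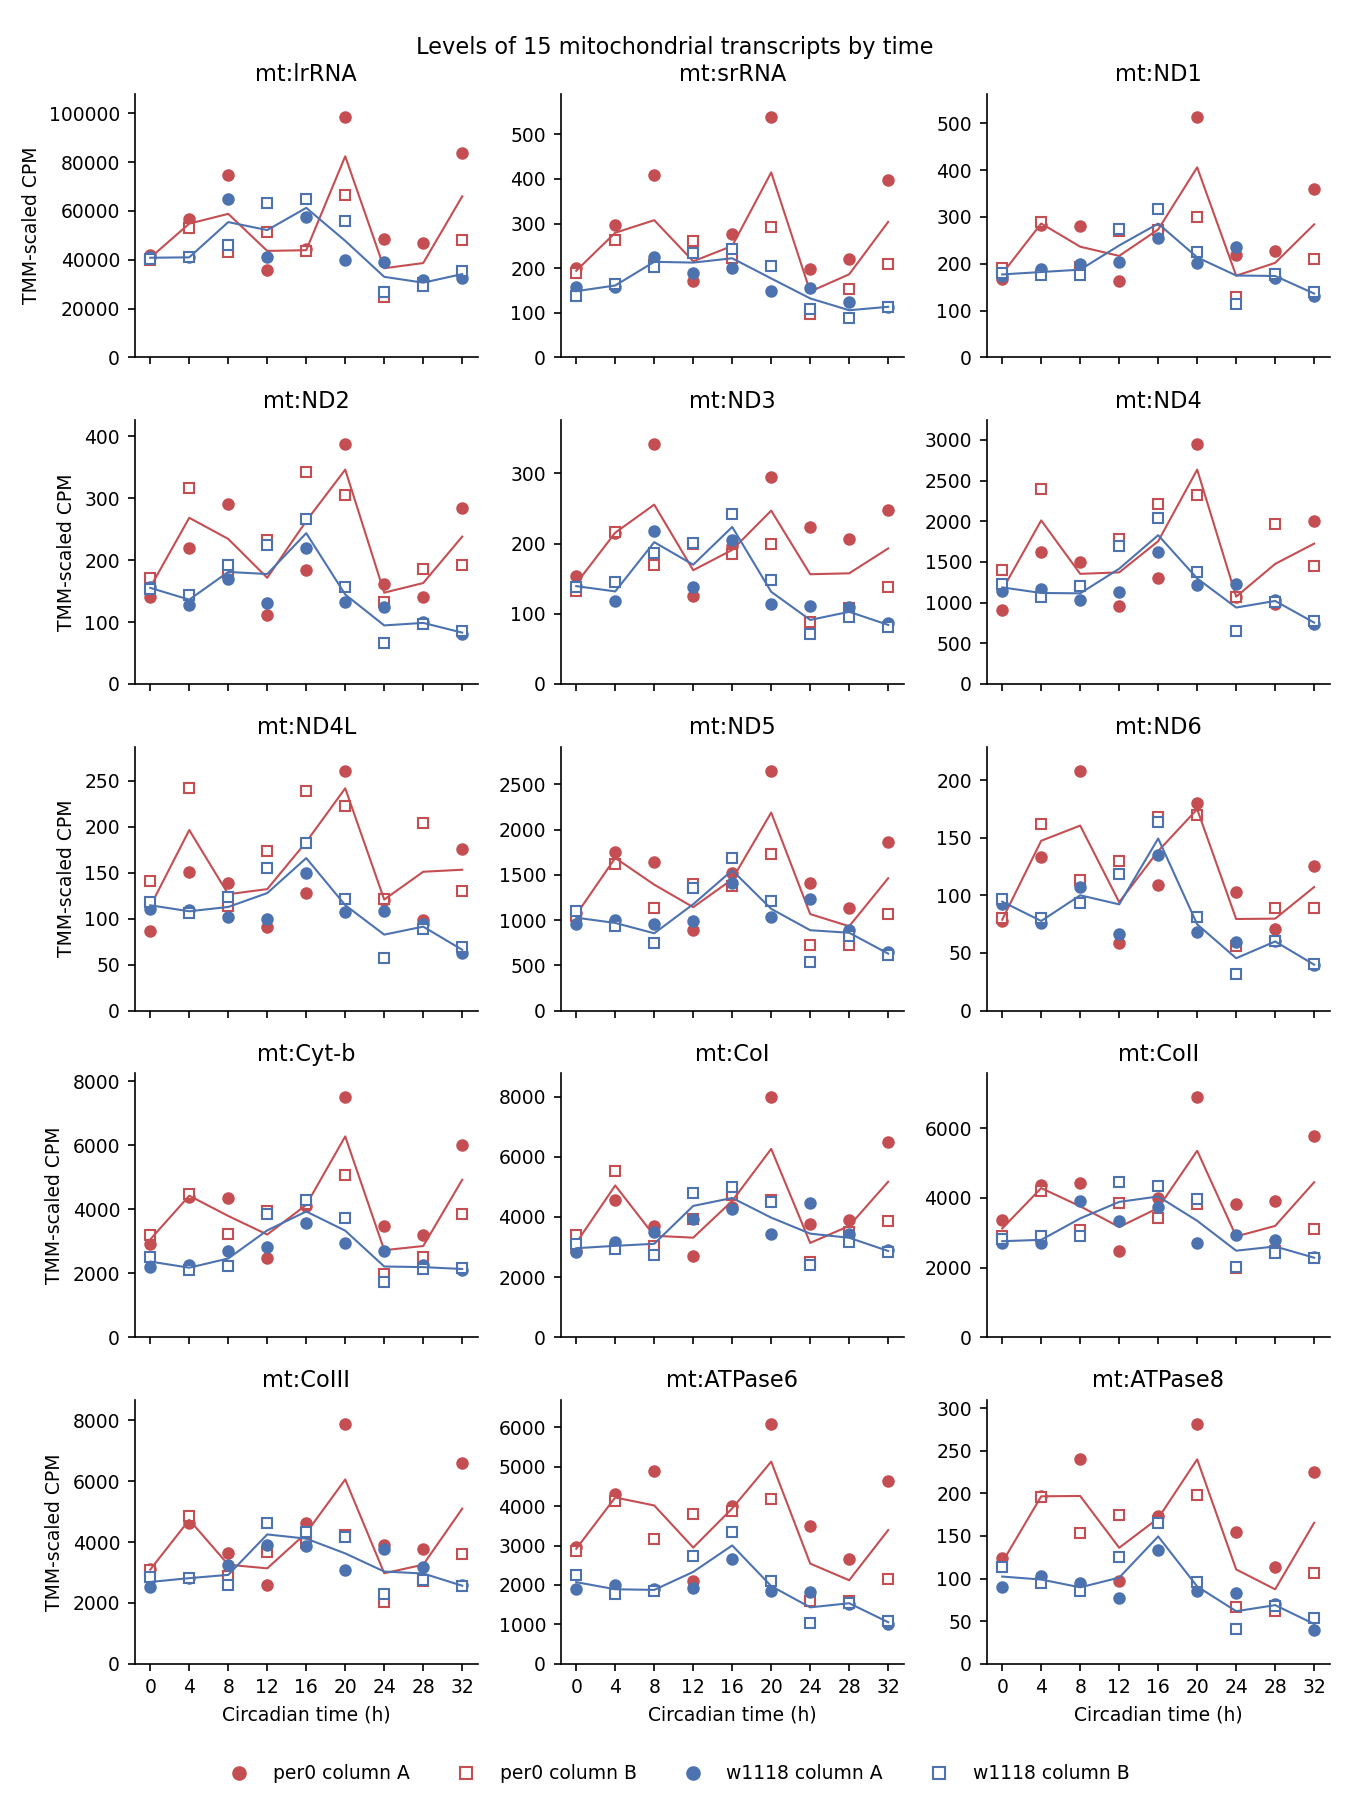
TMM-scaled CPM (vertical axis) of the 13 mitochondrial mRNAs and 2 rRNAs against circadian time in hours, 1 panel a gene. Red marks per0 and blue w1118, circles are column A libraries and open squares column B libraries, and lines join the means of the duplicates. In the mt:ATPase6 panel per0 reaches 6083 CPM at CT20 (column A) and w1118 3337 CPM at CT16 (column B).

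Mitochondrial RNAs took 3.68% to 13.1% of all counts in per0 libraries (median 7.55%), against 3.80% to 8.30% in w1118 libraries (median 6.63%). The lowest per0 share was in CT24 column B and the highest in CT8 column A. Most of it was mt:lrRNA, with 2.44% to 9.71% in per0 and 2.68% to 5.91% in w1118. The 13 mRNAs together took 1.23% to 3.34% in per0 (median 2.32%) and 1.11% to 2.39% in w1118 (median 1.82%). The 95% exact binomial interval of the mitochondrial share in a library was narrow, for example 7.37% to 7.39% in per0 CT0 column A, and it covers counting error only.

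The share was lower on the second day in both genotypes, given here as a description without a test. It was 3.68% to 7.89% on the second day in per0 (median 4.97%), against 7.33% to 13.1% on the first (median 8.42%). In w1118 it was 3.80% to 5.75% on the second day (median 4.44%), against 5.80% to 7.52% on the first (median 6.63%), with no overlap between the days. The fat body markers, which are among the most abundant transcripts here, moved the other way. They summed to 210500 to 516400 CPM on the second day and 18940 to 69420 CPM on the first in per0, and to 330500 to 467100 CPM on the second day and 91010 to 363700 CPM on the first in w1118. The TMM-scaled CPM used below allow for the weight of such abundant transcripts, and a share of counts does not.

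**Figure D2:**
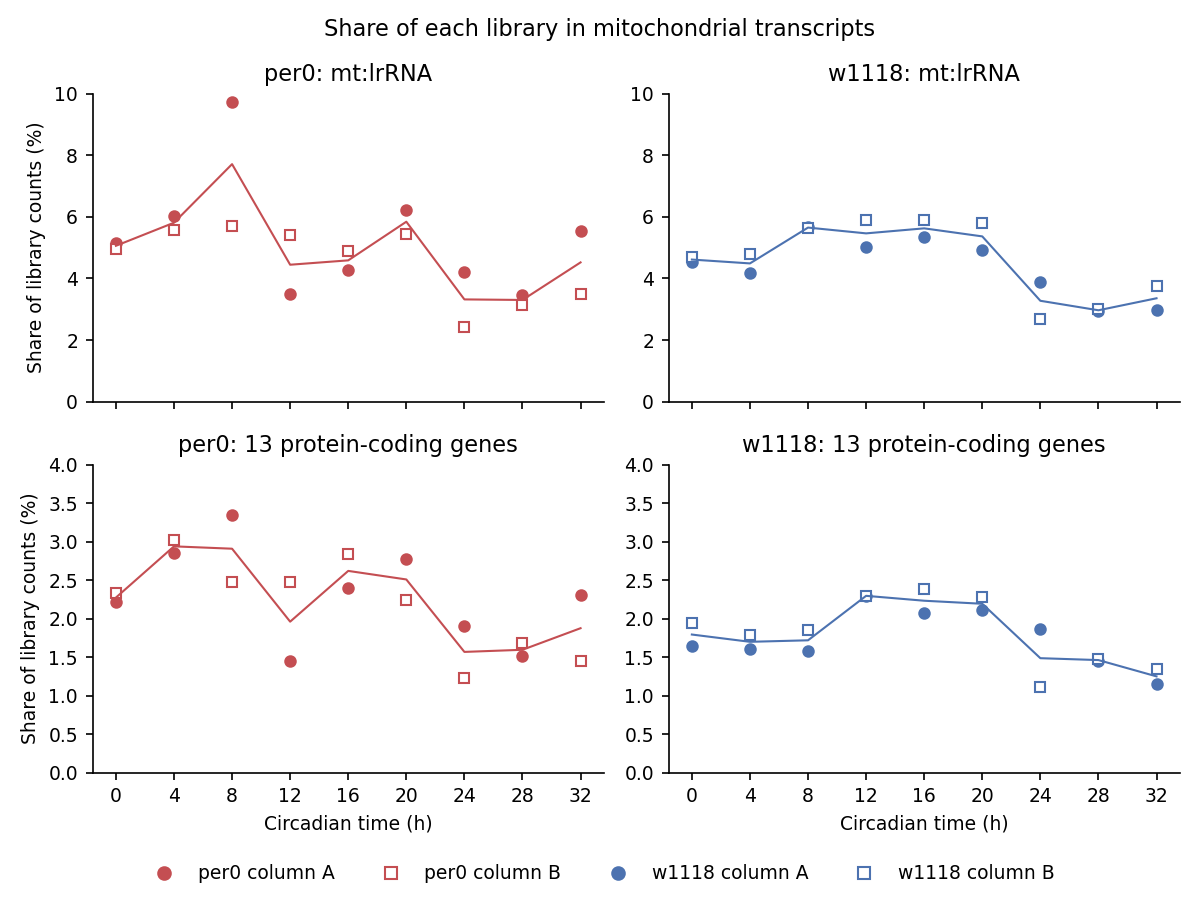
Percent of a library's counts (vertical axes) in mt:lrRNA (top) and in the 13 mitochondrial mRNAs together (bottom) against circadian time in hours, with per0 on the left and w1118 on the right. Circles are column A libraries, open squares column B libraries, and lines join the means of the duplicates. In per0 mt:lrRNA takes up to 9.71% of counts and in w1118 up to 5.91%.

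The first comparison asked how mitochondrial transcripts differed between per0 and w1118 fat body, with time as a factor. Mitochondrial mRNAs were higher in per0, with the largest differences among mRNAs in those of the ATP synthase, while complex IV mRNAs and the large rRNA did not pass the test. Of the 18 transcripts with enough counts to test, 12 were called higher in per0 and 0 lower by edgeR's quasi-likelihood test at an adjusted p under 0.05, with p-values adjusted over all 12020 genes tested. They were 10 of the 13 mRNAs, 1 of the 2 rRNAs and 1 of the 3 tRNAs tested. Over all genes 42.4% were called, 19.4% higher in per0 and 23% lower. The median log2 difference was 0.46 over the 18 mitochondrial transcripts and −0.16 over all genes tested.

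The 2 ATP synthase mRNAs were both called. mt:ATPase6, the subunit that lines the proton channel, had 1583 to 6083 CPM in per0 libraries (median 3644), against 1013 to 3337 CPM in w1118 libraries (median 1874). The ranges overlapped, and the per0 CT24 and CT28 libraries of column B, the lowest of their genotype, lay below the w1118 median. It was higher by 0.82 ± 0.13 log2 (SE, n = 18 libraries each, edgeR adjusted p = 1.02e-05). Its neighbour mt:ATPase8, a small accessory subunit, had 61.4 to 281 CPM in per0 (median 161) and 39.6 to 165 CPM in w1118 (median 88.1), a difference of 0.77 ± 0.14 log2 (adjusted p = 7.56e-05).

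All 7 complex I mRNAs were called higher in per0. mt:ND2, part of the proton-pumping arm, had 111 to 387 CPM in per0 (median 188), against 65.4 to 267 CPM in w1118 (median 138), a difference of 0.58 ± 0.13 log2 (adjusted p = 0.000932). mt:ND6 had 55.8 to 208 CPM in per0 (median 111), against 31.6 to 163 CPM in w1118 (median 77.8), and differed by 0.53 ± 0.13 log2 (adjusted p = 0.00254). The other 5 lie in the same membrane arm, and their differences ran from 0.29 ± 0.11 log2 for mt:ND1 (adjusted p = 0.0367) through 0.40 for mt:ND4 and mt:ND5 and 0.43 for mt:ND3 to 0.49 ± 0.13 log2 for mt:ND4L (adjusted p = 0.00334). The per0 and w1118 ranges overlapped for each of them. The call of mt:ND1 was the least stable: it was lost, at adjusted p of 0.0509 to 0.0714, without per0 CT12 B, CT20 A, CT24 A or CT32 A, or without w1118 CT4 A, CT16 A, CT24 B, CT32 A or CT32 B.

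mt:Cyt-b, the electron-carrying core of complex III, had 1974 to 7492 CPM in per0 (median 3891), against 1723 to 4277 CPM in w1118 (median 2388). It was higher in per0 by 0.49 ± 0.10 log2 (adjusted p = 0.000489), with overlapping ranges. The complex IV mRNAs did not pass. mt:CoI, the subunit with the oxygen-reducing site, had 2493 to 7981 CPM in per0 (median 3878) and 2414 to 4990 CPM in w1118 (median 3308), a difference of 0.19 ± 0.11 log2 (adjusted p = 0.165). mt:CoII, which receives electrons from cytochrome c, had a difference of 0.25 ± 0.11 log2 (adjusted p = 0.0651), and mt:CoIII one of 0.24 ± 0.12 log2 (adjusted p = 0.0883). Both were called without per0 CT24 B (adjusted p = 0.0232 for mt:CoII and 0.0238 for mt:CoIII) or without w1118 CT24 A (0.0273 and 0.0219), as mt:CoI was (0.0499 and 0.0299). In all, mt:CoII was called on leaving out any of 12 libraries and mt:CoIII any of 5. A p above the threshold does not show that these levels were equal.

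Of the rRNAs, mt:srRNA had 96.6 to 538 CPM in per0 (median 222), against 88.2 to 244 CPM in w1118 (median 159), and was higher in per0 by 0.57 ± 0.12 log2 (adjusted p = 0.000428). mt:lrRNA had 24714 to 98240 CPM in per0 (median 47409), against 26714 to 64984 CPM in w1118 (median 40955), a difference of 0.18 ± 0.14 log2 (adjusted p = 0.306). The per0 libraries thus held both the lowest and the highest mt:lrRNA level. The alanine tRNA gene mt:tRNA:Ala-TGC, which lies after mt:ND3 on the same strand, had 0.526 to 4.02 CPM in per0 (median 2.29), against 0.778 to 3.37 CPM in w1118 (median 1.51), and was called higher in per0 (0.58 ± 0.19 log2, adjusted p = 0.0179).

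**Figure D3:**
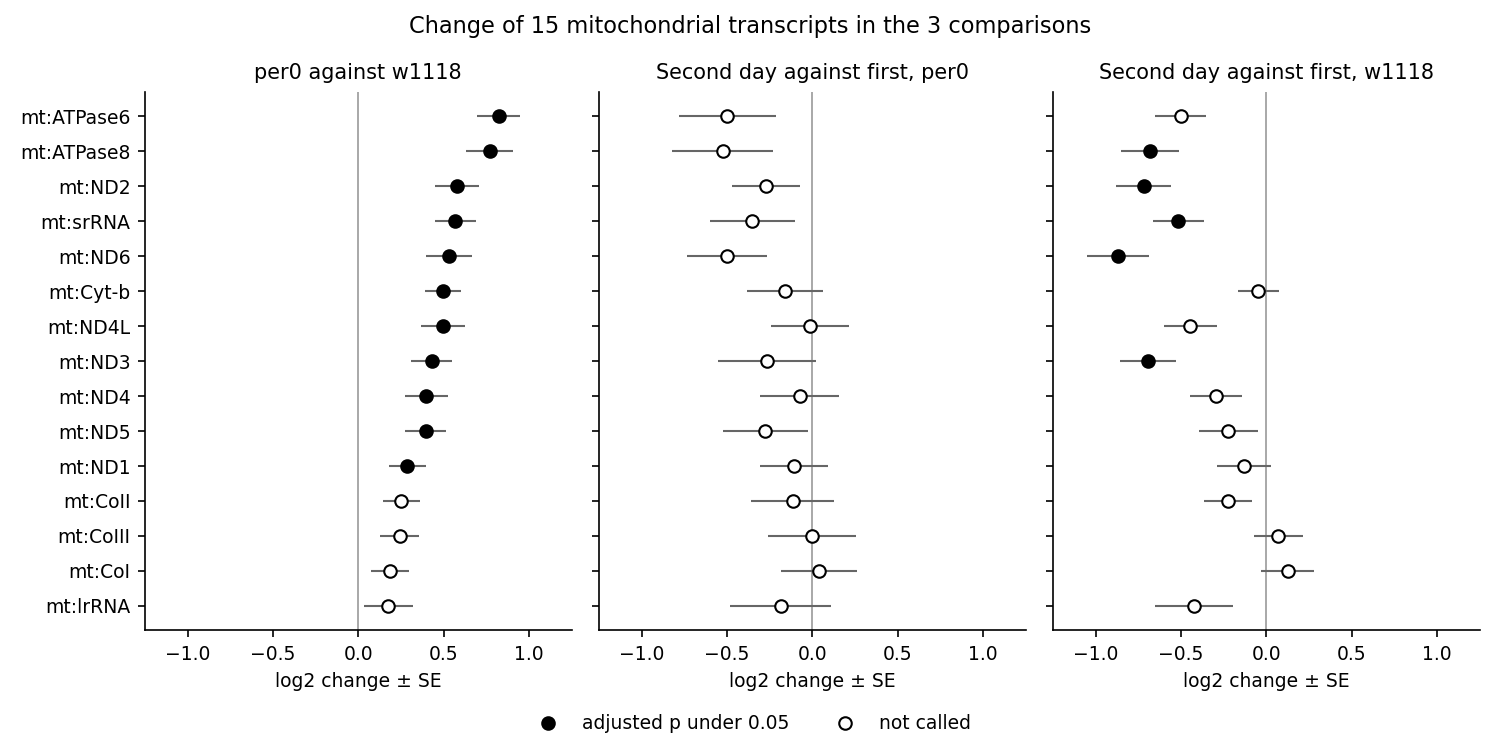
Log2 differences with their standard errors (horizontal axis) of the 13 mRNAs and 2 rRNAs for per0 against w1118, for the second day against the first in per0 and for the same in w1118. Filled points have an edgeR adjusted p under 0.05. In the genotype comparison every point lies above 0, from 0.18 for mt:lrRNA to 0.82 for mt:ATPase6.

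Nuclear genes of the same complexes were also higher in per0. Of the nuclear subunits tested, 32 of 33 in complex I, 4 of 4 in complex II, 8 of 8 in complex III, 9 of 9 in complex IV and 13 of 13 in the ATP synthase were called higher, and 0 were called lower. Their median log2 differences were 0.66, 0.80, 0.77, 0.72 and 0.69, beside −0.16 over all genes tested. ND-13A, a complex I subunit, had 60.2 to 159 CPM in per0 (median 124), against 30.1 to 117 CPM in w1118 (median 60.4), a difference of 0.89 ± 0.09 log2 (adjusted p = 7.04e-09). COX5B, a complex IV subunit, differed by 0.81 ± 0.13 log2 (adjusted p = 1.42e-05), where none of the 3 mitochondrial complex IV mRNAs was called. The complex I number was 4 of 33 in column B alone, 11 at night alone and 14 on the second day alone.

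Of 9 genes tested for mitochondrial DNA maintenance and transcription, 5 were called higher in per0 and 0 lower. TFAM, which packages mitochondrial DNA and takes part in starting its transcription, had 24.6 to 54.6 CPM in per0 (median 45.0), against 16.4 to 41.0 CPM in w1118 (median 28.9), a difference of 0.53 ± 0.08 log2 (adjusted p = 7.95e-06). The RNA polymerase gene PolrMT differed by 0.23 ± 0.11 log2 and was not called (adjusted p = 0.0955), although it was on leaving out any of 13 libraries (0.0169 to 0.0492). Of 9 genes tested for mitochondrial RNA processing and stability, 6 were called higher and 1 lower. bsf, whose product binds and stabilises mitochondrial mRNAs, had 63.4 to 302 CPM in per0 (median 179), against 39.2 to 214 CPM in w1118 (median 83.1), a difference of 0.86 ± 0.13 log2 (adjusted p = 5.92e-06). The lower one was scu, a subunit of mitochondrial RNase P with a further role as a dehydrogenase (−0.49 ± 0.09 log2, adjusted p = 7.64e-05).

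The genotype counts depended on which libraries entered. Taken alone, the first day gave 5 mitochondrial transcripts called, the night 0 and the second day 1, each time with fewer libraries and fewer genes called over all, at 2176, 1460 and 562. Column A alone gave 4 and column B alone 3, and the shares of all genes called there are not given here. With the summed testis marker level as a covariate 8 were called, and mt:ND1, mt:ND3, mt:ND5 and mt:tRNA:Ala-TGC were lost (adjusted p = 0.169, 0.0661, 0.0849 and 0.0645). The log2 difference of mt:ATPase6 was 0.90 on the first day, 0.65 at night and 0.95 on the second day.

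The second comparison set the second day against the first at the same circadian phases within each genotype. A 24 h cycle alone thus gives no change. The days also differ in time in darkness, which cannot be told apart from any difference in larval age or stage between them. No mitochondrial transcript was called in per0. In w1118 several mitochondrial mRNAs and the small rRNA fell, while the abundant mt:CoI, mt:CoIII and mt:Cyt-b did not pass in either direction.

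In per0 no mitochondrial transcript was called between the days (0 of 18 by edgeR, 0 at an unadjusted p under 0.05, and 0 by DESeq2), beside 8.97% higher and 7.64% lower among the 10552 genes tested. mt:ND6 had 55.8 to 126 CPM on the second day (median 88.7), against 77.5 to 208 CPM on the first (median 123), a change of −0.50 ± 0.23 log2 (adjusted p = 0.175). mt:ATPase6 had 1583 to 4634 CPM on the second day and 2861 to 4880 CPM on the first (−0.50 ± 0.28 log2, adjusted p = 0.275). The value of mt:CoI was 0.04 ± 0.22 log2 (adjusted p = 0.924) and that of mt:lrRNA −0.19 ± 0.30 log2 (adjusted p = 0.721). The days overlapped for each of these 4. roX1 and roX2 summed to 0.667 to 182 CPM on the second day in per0, against 93.6 to 331 CPM on the first. The part of sex composition in these values was not tested. The median log2 change was −0.17 over the 18 transcripts and −0.11 over all genes tested. At an unadjusted p under 0.05, 15.5% of all genes tested were higher and 15.4% lower. The per0 values depended on the scaling. With library sizes alone, which moves the median change of all genes by −0.52 log2, 14 transcripts were called lower. There mt:CoI turned to −0.49 log2 (adjusted p = 0.0371), and the share of all genes called is not given here.

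In w1118, of 17 transcripts tested, 5 were called lower and 0 higher, beside 10.5% lower and 4.57% higher over the 11394 genes tested. The median log2 change was −0.42 over the mitochondrial transcripts and 0.13 over all genes.

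In w1118 the 6 libraries of the second day had 31.6 to 60.0 CPM of mt:ND6 (median 49.8), against 75.6 to 107 CPM in the 6 of the first day (median 92.8). The days did not overlap, and the change was −0.87 ± 0.18 log2 (SE, edgeR adjusted p = 0.0109). mt:ND2 had 65.4 to 124 CPM on the second day (median 91.1), against 128 to 192 CPM on the first (median 155), again with no overlap, and fell by 0.72 ± 0.16 on the log2 scale (adjusted p = 0.0159). mt:ND3 had 71.0 to 111 CPM on the second day (median 91.1) and 119 to 218 CPM on the first (median 142), with no overlap (−0.69 ± 0.17 log2, adjusted p = 0.0206). mt:ATPase8 likewise had 39.6 to 83.1 CPM on the second day and 85.1 to 114 CPM on the first (−0.68 ± 0.17 log2, adjusted p = 0.0243). These 4 lie on the strand that holds 9 of the mRNAs, as do mt:CoI, mt:CoIII and mt:Cyt-b, which were not called.

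mt:srRNA, on the other strand, had 88.2 to 155 CPM on the second day (median 113), against 138 to 225 CPM on the first (median 161), with overlap, and a change of −0.52 ± 0.15 log2 (adjusted p = 0.0456). mt:lrRNA had 26714 to 39245 CPM on the second day and 40332 to 64974 CPM on the first, with no overlap. It was not called by edgeR (−0.42 ± 0.23 log2, adjusted p = 0.249), but was called lower by DESeq2 (adjusted p = 0.0154), by limma voom (adjusted p = 0.0418) and under library size scaling (adjusted p = 0.0393). mt:ATPase6 was just outside the threshold by edgeR, with 1013 to 1828 CPM on the second day and 1775 to 2252 CPM on the first (−0.50 ± 0.15 log2, adjusted p = 0.0517), and was called by DESeq2 (adjusted p = 0.0127), limma voom (adjusted p = 0.0324) and under library size scaling (adjusted p = 0.0134). DESeq2 and limma voom each called 7 transcripts, these and the 5 called by edgeR. The shares of all genes that they called are not given here. None of the complex III and IV mRNAs was called by edgeR. mt:Cyt-b was at −0.05 ± 0.12, mt:CoIII at 0.07 ± 0.14 and mt:CoI at 0.12 ± 0.16 log2 (adjusted p = 0.790, 0.733 and 0.570). mt:CoII was at −0.23 ± 0.14 log2 (adjusted p = 0.295), and under library size scaling it was called lower (−0.42 log2, adjusted p = 0.0385). mt:CoI had 2414 to 4479 CPM on the second day and 2727 to 3489 CPM on the first.

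These w1118 calls rested on few libraries. Without CT0 A or without CT0 B, 0 of 17 were called (mt:ND6 adjusted p = 0.0553 and 0.0600), and 1 of the CT0 samples carries a genotype tag that goes against its title. Without CT32 A 2 were called, without CT4 A, CT8 A, CT8 B or CT32 B 3, and without CT24 A 7. The call of mt:srRNA was lost without any of the 12 libraries but CT24 A (adjusted p = 0.0566 to 0.110), that of mt:ATPase8 without 6 of them, that of mt:ND3 without 4, and those of mt:ND2 and mt:ND6 without the 2 CT0 libraries. The testis marker sum was 4.38 to 498 CPM on the second day and 2.97 to 126 CPM on the first. The hemocyte sum was 191 to 731 CPM on the second day and 345 to 1457 CPM on the first. roX1 and roX2 summed to 34.2 to 182 CPM on the second day and 12.2 to 148 CPM on the first, lowest in CT0 A. The part of sex composition in these changes was not tested. Fat body markers differed between the days too, as given above for the shares, and their part in these changes was not tested. With the testis sum as a covariate 0 transcripts were called, and with the midgut sum 1.

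The difference between the genotypes in the second-day change was tested directly. None of 18 mitochondrial transcripts was called by edgeR (1 at an unadjusted p under 0.05, 0 by DESeq2), beside 0.499% of 11815 genes, 0.423% with a higher and 0.0762% with a lower change in per0. The one was mt:tRNA:Cys-GCA, at 2.50 ± 1.04 log2, per0 change minus w1118 change (adjusted p = 0.380), a gene with 207 counts over all libraries. Over all genes tested, 11% had an unadjusted p under 0.05 for this difference. The smaller number of calls in per0 is thus not shown to be a difference from w1118.

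The nuclear genes of the respiratory chain were called lower on the second day in part in per0 and nearly all in w1118. In per0 10 of 33 complex I, 3 of 4 complex II, 1 of 8 complex III, 2 of 9 complex IV and 0 of 13 ATP synthase genes tested were called lower, with median changes of −0.57, −0.91, −0.64, −0.62 and −0.58 log2, beside 7.64% of all genes tested called lower. These per0 counts rested on single libraries: for complex I the number ran from 1 without CT4 A to 26 without CT0 B. In w1118 32 of 33, 4 of 4, 8 of 8, 9 of 9 and 13 of 13 genes of these lists were called lower, with median changes of −1.14, −1.22, −1.34, −1.19 and −1.20 log2, beside 10.5% of all genes tested. The complex I number in w1118 was 10 without both CT0 libraries. UQCR-C1, a core subunit of complex III, had 304 to 784 CPM on the second day and 945 to 1552 CPM on the first in w1118 (−1.40 ± 0.19 log2, adjusted p = 0.00159), beside −0.05 log2 for its mitochondrial partner mt:Cyt-b. COX5B had 128 to 338 CPM on the second day and 421 to 625 CPM on the first (−1.35 ± 0.19 log2, adjusted p = 0.00174), beside 0.12, −0.23 and 0.07 log2 for mt:CoI, mt:CoII and mt:CoIII. The difference between the genotypes was called for 0 of them by edgeR (2 complex I genes at an unadjusted p under 0.05, beside 11% of all genes tested).

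Genes for mitochondrial transcription and RNA processing were tested between the days in the same way. Of the 9 tested in each list, 2 for maintenance and transcription and 4 for RNA processing were called lower on the second day in per0, beside 7.64% of all genes, and 5 and 7 in w1118, beside 10.5%. None was called higher in either genotype. TFAM fell by 0.57 ± 0.13 log2 in per0 (adjusted p = 0.0148) and by 0.66 ± 0.14 in w1118 (adjusted p = 0.0109). PolrMT fell by 0.76 ± 0.17 in per0 (adjusted p = 0.0150) and by 0.79 ± 0.21 in w1118 (adjusted p = 0.0340), and bsf by 0.93 ± 0.23 in per0 (adjusted p = 0.0218, lost on leaving out any of 5 libraries) and by 1.11 ± 0.21 in w1118 (adjusted p = 0.00716). The per0 call of TFAM was lost without CT24 A (adjusted p = 0.0511). In per0, MTPAP, the mitochondrial poly(A) polymerase, fell by 0.98 ± 0.16 (adjusted p = 0.00456) and Suv3, the helicase of the RNA-degrading complex, by 1.06 ± 0.22 (adjusted p = 0.0111). The w1118 numbers were as low as 1 and 2 without CT0 A, and the w1118 call of PolrMT was lost on leaving out any of 8 libraries (adjusted p = 0.0523 to 0.0781).

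The third comparison asked whether levels changed at all over the 9 times. No mitochondrial transcript was called by edgeR in per0 (0 of 18, 0 at an unadjusted p under 0.05, 3 called by DESeq2), beside 9.71% of 10926 genes, nor in w1118 (0 of 17, 3 at an unadjusted p under 0.05, 12 called by DESeq2), beside 12.2% of 11650 genes. Over all genes tested, 29.7% in per0 and 28.5% in w1118 had an unadjusted p under 0.05 by edgeR. The shares of all genes called by DESeq2 are not given here. The nearest in w1118 were mt:ND3 (adjusted p = 0.0895), mt:ND6 (0.0953) and mt:srRNA (0.117), and in per0 mt:ND6 (0.203). The w1118 count rested on the library and the scaling: it was 8 without CT24 A, 5 without CT12 A, 3 without CT0 B, CT20 A or CT24 B, 2 without CT12 B, and 1 without CT4 A, CT16 A or CT20 B. The difference of the time courses between the genotypes was called for 0 of 18 (0 at an unadjusted p under 0.05), beside 0.374% of 12020 genes. An unadjusted p under 0.05 was found for 28.6% of those genes.

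As a description, the mean of the duplicates peaked in per0 at CT20 for 14 of the 15 mRNAs and rRNAs and at CT8 for 1, and was lowest at CT24 for 8, CT0 for 4 and CT28 for 3. In w1118 it peaked at CT16 for 14 and at CT12 for 1, and was lowest at CT32 for 13 and at CT28 for 2. At CT20 the per0 libraries of columns A and B held 1.32 and 1.97 CPM of roX1 and roX2. At CT16 the w1118 libraries of columns A and B held 9.57 and 8.38 CPM of them, the lowest sums in w1118. Sex composition and time thus cannot be told apart at CT20 in per0 or at CT16 in w1118. The per0 peak moved with the scaling. As a share of counts it lay at CT8 for 11 and at CT4 for 4 in per0, where the CT20 library of column A has the smallest TMM factor, 0.634. In w1118 the peak as a share of counts lay at CT16 for 8, CT12 for 4, CT8 for 2 and CT20 for 1. Nuclear respiratory genes of complexes I to IV and the ATP synthase were called over time for 0 in each list in per0. In w1118 they were called for 26 of 33 in complex I, 2 of 4 in complex II, 8 of 8 in complex III, 6 of 9 in complex IV and 12 of 13 in the ATP synthase. The w1118 number for complex I ran from 5 without CT0 A to 31 without CT0 B.

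No mitochondrial transcript had a called rhythm. For a 24 h cycle the counts were 0 of 18 in per0 (0 at an unadjusted p under 0.05), beside 0% of genes, and 0 of 17 in w1118 (2 at an unadjusted p under 0.05, 3 called by DESeq2), beside 0.618% of genes. The pair in w1118 was mt:Cyt-b, with a fitted trough-to-peak range of 0.73 ± 0.21 log2 (adjusted p = 0.290), and mt:tRNA:Ile-GAT, with 1.48 ± 0.48 log2 (adjusted p = 0.408). For this cycle 10.5% of all genes tested in per0 and 9.56% in w1118 had an unadjusted p under 0.05. For a 12 h cycle the counts were 0 of 18 in per0 and 0 of 17 in w1118, beside 0% of genes in each, and 8 of the 18 in per0 and 0 in w1118 had an unadjusted p under 0.05, beside 10.2% of all genes tested in per0 and 8.52% in w1118. Among those 8, mt:ND2 had a fitted range of 0.98 ± 0.29 log2 (adjusted p = 0.389). mt:Cyt-b had 0.87 ± 0.28 and mt:ND1 0.84 ± 0.27 log2 (adjusted p = 0.423 for each). The others were mt:CoI, mt:ND4, mt:ND6, mt:srRNA and mt:tRNA:Ile-GAT. As given above, the time of the per0 peak moved with the scaling. The per0 CT20 and CT32 libraries of column A have the smallest TMM factors, 0.634 and 0.664.

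Ratios between mitochondrial RNAs of one library do not depend on the scaling. mt:ND2 and mt:CoI lie on the same strand with 3 tRNA genes between them. The ratio of their counts was 0.0362 to 0.0533 on the second day in per0 (median 0.0467), against 0.0483 to 0.0780 on the first (median 0.0538), and the days overlapped. In w1118 it was 0.0271 to 0.0305 on the second day (median 0.0285), against 0.0406 to 0.0705 on the first (median 0.0495), with no overlap. mt:ND6 to mt:CoI was 0.0182 to 0.0273 on the second day and 0.0237 to 0.0560 on the first in per0, and 0.0131 to 0.0189 on the second day and 0.0240 to 0.0342 on the first in w1118. mt:ATPase6 to mt:CoI was 0.451 to 1.31 in per0 (median 0.833) and 0.350 to 0.728 in w1118 (median 0.539). The overlapping pairs had narrower ratios than these. mt:ATPase8 to mt:ATPase6 was 0.0388 to 0.0493 in per0 and 0.0389 to 0.0535 in w1118, and mt:ND4L to mt:ND4 was 0.0879 to 0.113 in per0 and 0.0855 to 0.103 in w1118. Narrow ratios were not confined to neighbours, as mt:CoIII to mt:CoI was 0.845 to 0.986 in w1118. Nor were all neighbours narrow, as mt:ND4 to mt:ND5 was 0.758 to 2.72 in per0.

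The duplicate columns of per0 differed in some ratios. mt:ND4 and mt:ND5 are neighbours on one strand, parted by a single tRNA gene. Their ratio was 1.06 to 2.72 in the 9 per0 libraries of column B (median 1.36), against 0.758 to 1.11 in the 9 of column A (median 0.912), and B was above A at 9 of 9 times. In w1118 the ratio was 1.12 to 1.60 in column B (median 1.21) and 0.997 to 1.20 in column A (median 1.15), with B above A at 6 of 9 times. The highest per0 value, 2.72, was that of the CT28 column B library that stood apart. mt:CoIII to mt:CoI went the other way, at 0.777 to 0.951 in column B and 0.970 to 1.08 in column A in per0, with B above A at 0 of 9 times, and at 6 of 9 times in w1118. The labels do not say what the letters stand for, and this pattern was noticed in the data, so the ratios are given without a test. An edgeR fit of the letter to gene levels, with time as a factor, called 0 of 18 mitochondrial transcripts in per0, beside 0.76% of 10926 genes. In w1118 it called 0 of 17, beside 0% of 11650 genes. The smallest adjusted p in per0 was 0.242, for mt:srRNA. mt:ND4 was at 0.28 ± 0.19 log2, B minus A (adjusted p = 0.588). Beside the ratios, the genotype difference of mt:ND4 was 0.20 log2 within column A (adjusted p = 0.537) and 0.60 within column B (adjusted p = 0.0518).

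**Figure D4:**
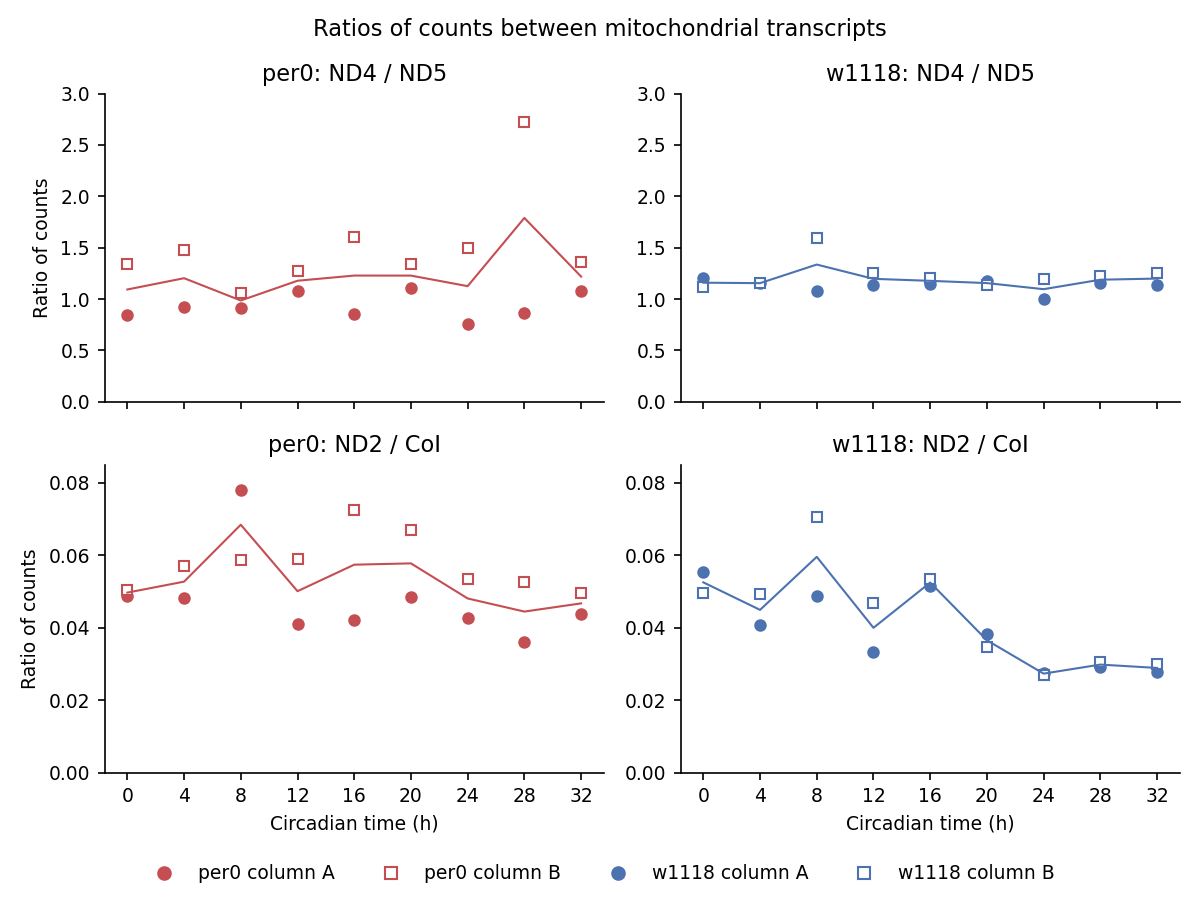
Ratio of mt:ND4 to mt:ND5 counts (top) and of mt:ND2 to mt:CoI counts (bottom) in each library against circadian time in hours, with per0 on the left and w1118 on the right. Circles are column A libraries and open squares column B libraries. In per0 the open squares of the top panel lie above the circles at each of the 9 times, and in w1118 the values of the bottom panel are 0.0305 or lower at CT24, CT28 and CT32.

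The 15 mRNAs and rRNAs varied together across libraries. Over the 105 pairs, Pearson's r of log2(CPM + 0.5) had a median of 0.842 in per0 (0.326 to 0.989) and 0.852 in w1118 (0.592 to 0.985), over 18 libraries each that share scaling and depth. Overlapping neighbours were among the closest pairs: mt:ATPase6 with mt:ATPase8 (0.989 in per0, 0.978 in w1118) and mt:ND4 with mt:ND4L (0.978 in per0, 0.985 in w1118). mt:CoI with mt:CoIII (0.962 in per0, 0.982 in w1118), mt:ND2 with mt:ND6 (0.930 in per0, 0.974 in w1118) and mt:lrRNA with mt:srRNA (0.966 in per0, 0.932 in w1118) were also close. mt:CoI and mt:ND6, which lie on one strand, were further apart, at 0.712 in per0 and 0.593 in w1118. mt:ND4 and mt:ND5 had 0.601 in per0 (0.767 without CT28 B) and 0.950 in w1118, and the lowest value in per0 was that of mt:ND3 with mt:ND4L (0.326, or 0.455 without CT28 B, and 0.881 in w1118).

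**Figure D5:**
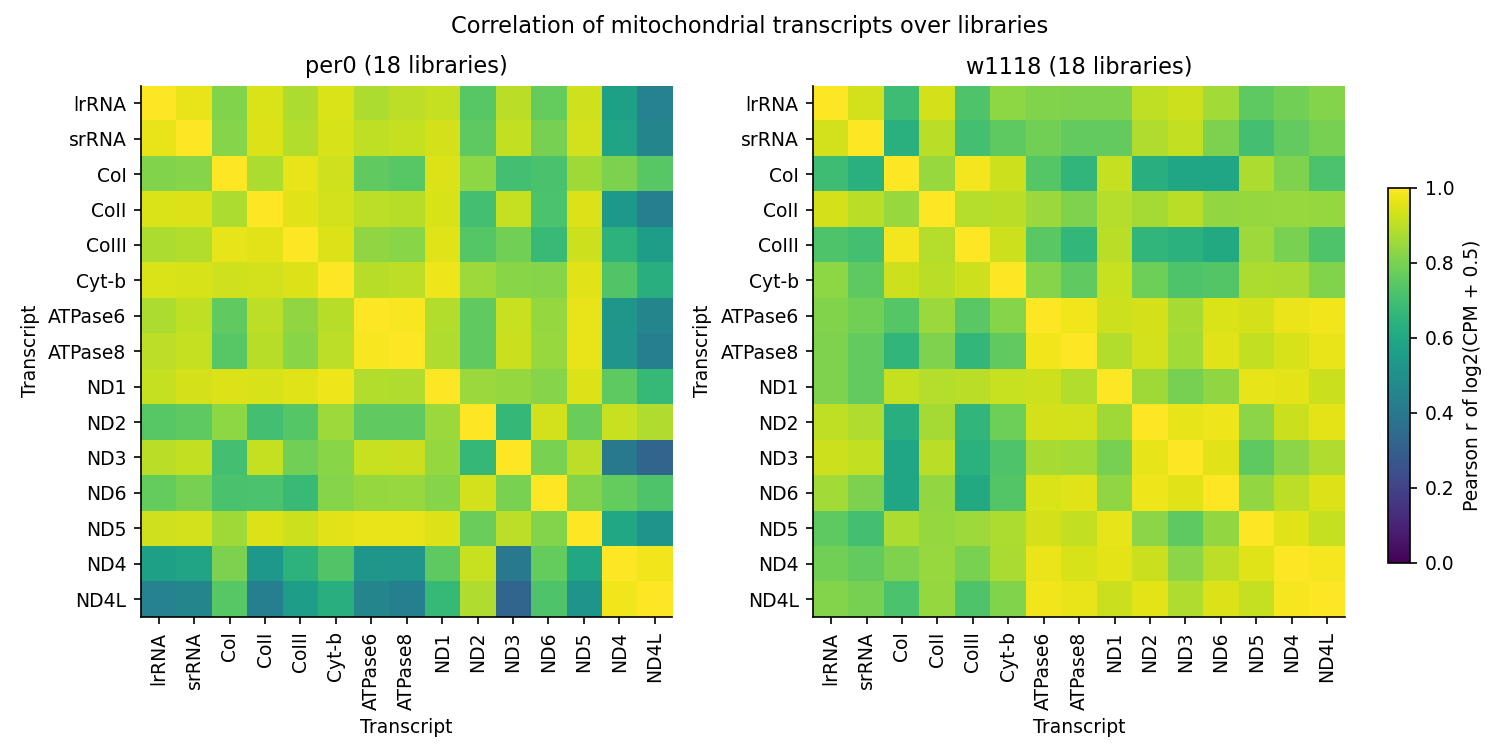
Pearson's r of log2(CPM + 0.5) between each pair of the 13 mRNAs and 2 rRNAs over 18 per0 libraries (left) and 18 w1118 libraries (right), with the colour scale giving r. The median over the 105 pairs is 0.842 in per0 and 0.852 in w1118.

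The tRNA genes had few counts in these libraries. Mature tRNAs are short and lack the poly(A) tail at which the kit primes. Of the 22, 8 had 0 counts in every library, among them the genes for tRNA Met, Trp and Asp. A count of 0 in a library allows up to 0.0935 to 0.220 CPM there (3 counts, counting error only). A further 11 had 1 to 80 counts over all 36 libraries, the highest mt:tRNA:Gln-TTG, and were not tested. The 3 tested were mt:tRNA:Ala-TGC with 1580 counts, mt:tRNA:Ile-GAT with 1303 and mt:tRNA:Cys-GCA with 207, the last not tested within w1118. mt:tRNA:Ile-GAT had 0.737 to 4.54 CPM in per0 (median 1.65), against 0.519 to 4.76 CPM in w1118 (median 1.18), a difference of 0.19 ± 0.21 log2 (adjusted p = 0.465). mt:tRNA:Cys-GCA had 0.0657 to 0.946 CPM in per0 (median 0.302), against 0 to 0.564 CPM in w1118 (median 0.157), a difference of 0.80 ± 0.45 log2 (adjusted p = 0.141). Neither was called, which does not show that the levels were equal.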

How the data were processed

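RNA was sequenced from pooled larval fat bodies. The deposited tables hold whole-number read counts per gene for 36 libraries. The kit was SMART-Seq v4 per the labels' protocols, which gives full-length cDNA by PCR without strand or molecular identifiers. The submitters' processing notes name STAR 2.7.9a, featureCounts, edgeR and DESeq2 1.30.1 without a role or order, and the genome build is not given in the sources used here. Columns carry a genotype, a time and a letter, and no label ties the letters to replicate numbers. In 1 w1118 CT0 sample the genotype tag reads per0 against its title, and the sample was kept as w1118.

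From the counts, edgeR 4.0.16 (R 4.3.3) was run with TMM scaling, filterByExpr (minimum count 10, minimum total 15) by genotype and time, and the quasi-likelihood F test. Time was a factor in the genotype comparison, clock phase in the day comparisons, and 24 h and 12 h cosine and sine pairs entered together in the rhythm fits. P-values were adjusted over all genes tested by the Benjamini-Hochberg method, with a threshold of 0.05. Counts summed to 16513757 to 28423768 per library, and intervals and floors cover counting error only. Printed CPM use TMM factors over all 36 libraries. The pseudocount for correlations was 0.5.

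The mitochondrial genes were named by their mt: symbols, and 37 of 37 matched BDGP6 by identifier or symbol. Any mitochondrial gene could be named. Of the nuclear lists, up to 4 genes per comparison with the smallest p could be named, and PolrMT, TFAM and bsf always. The genes and lists were chosen with earlier results of these data known. Alternatives were DESeq2 1.42.0, limma voom 3.58.1, other scalings and filters, marker covariates, and libraries or times left out. Scaling by library size alone, the column letter as a block and each column alone were added after the data were seen, as were the ratios by column. Counts were simulated for the genotype comparison with 50 genes changed at each size. The test recovered 14 genes at a log2 change of 0.5 and 28 at 1, with 3 false calls among 11756 genes. The changed genes were drawn from all genes tested, so this is not the recovery for mitochondrial transcripts.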

Additional observations from a re-analysis of the deposited data

How the results depend on the processing

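Between per0 and w1118, the 12 transcripts called higher kept a positive difference under every alternative run, while mt:lrRNA (−0.04 log2) and mt:tRNA:Ile-GAT (−0.18) were negative at night alone and mt:tRNA:Cys-GCA (−0.48) on the first day alone, none of them called. The counts of mitochondrial transcripts called were 12 with DESeq2 and 11 to 15 on leaving out 1 library. They were 4 in column A alone, 3 in column B alone, 5 on the first day alone, 0 at night alone and 1 on the second day alone. For the second day against the first in w1118 the 5 calls became 7 with DESeq2 and with limma voom, 0 to 7 on leaving out 1 library, 9 under library size scaling, 2 without a filter, 1 with the midgut covariate, 0 with the testis covariate, 0 without CT0, CT8 or CT32, 2 without CT4, 3 without CT28, and 0 in column A alone or column B alone. In per0 the 0 calls became 14 under library size scaling, where mt:CoI turned to −0.49 log2. For any time in w1118 the 0 calls became 12 with DESeq2, 3 under RLE scaling, 5 with scaling without the mitochondrial rows, 7 among genes with a mean of at least 10 CPM, 8 under library size scaling, 4 without CT0, 2 without CT4, 1 without CT12, 1 without CT16, 4 without CT20, 5 without CT24, and 0 to 8 on leaving out 1 library. In per0 it became 3 with DESeq2. For the 24 h cycle in w1118 the 0 calls became 3 with DESeq2, 1 with scaling without the mitochondrial rows and 1 among genes with a mean of at least 10 CPM. The cause of these changes was not tested, and the shares of all genes called under these alternatives are not given here. The call of mt:ND1 between the genotypes was also lost under RLE scaling, with scaling without the mitochondrial rows and under library size scaling. Library size scaling moved the median log2 change of all genes by −0.52 in per0 and −0.20 in w1118 for the second day against the first. No paired analysis was possible because no label ties the column letters to the replicate numbers. With the letter itself as a block, which is no pairing given by the labels, the calls were 12 between the genotypes, 0 for the second day in per0 and 5 in w1118, as without it. Duplicates of 2 libraries a time, 5 larvae a pool and small fold changes limit what these tests can detect. In simulated counts for the w1118 day comparison 1 of 50 genes changed by 0.5 log2 was recovered and 14 of 50 changed by 1. At changes of 2 and 3 log2, 30 and 28 of 50 were recovered. The changed genes were drawn from all genes tested, at any level, so these numbers do not give the recovery for mitochondrial transcripts.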
